A study of Mus musculus with 8 samples.

Results

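Transcripts of 10 genes that load, carry, export or take up lipoprotein lipid were followed in dermal fibroblasts from young and old mice. The genes were the phospholipid transfer protein gene Pltp, the apolipoprotein genes Apoe and Apod, the transporter genes Abca1 and Abcg1, the receptor genes Lrp1, Vldlr and Scarb1, and the liver X receptor (LXR) genes Nr1h2 and Nr1h3. A probe set, a group of array probes read together for a transcript, belonged to a gene if the platform annotation gave it that gene symbol and no other. This found 14 of the 45141 probe sets, covering 8 of the 10 genes, among 17097 genes named in this way. Vldlr had 5 probe sets, Abcg1 and Lrp1 had 2 each, and Pltp, Apoe, Apod, Scarb1 and Nr1h3 had 1 each. Abca1 and Nr1h2 had none under this rule and were not analysed here.

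The young group was 4 male C57Bl/6 mice aged 2 months and the old group 4 males of the same strain aged 18 months, with no treatment or transgene in the labels. Cells were freed from skin without subdermis by collagenase and sorted for Pdgfra and CD34 and against EpCam, CD31, CD24, CD117 and CD45. RNA of 5000 cells per mouse was amplified over 21 cycles and put on 1 array per mouse, so each value comes from a separate animal. The study's question is the effect of age on gene expression in this cell type. The gene set was chosen by its age differences on these same arrays, above all those of Pltp and Apoe, and by known function. Age differences of these genes are therefore given as a description, with their standard error (SE) and no p-value.

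Lipoproteins are particles of lipid and protein that move cholesterol and phospholipid between cells. Phospholipid transfer protein moves phospholipid between particles, apolipoproteins coat them and are recognised by receptors of the LDL receptor family, and ABC transporters load cholesterol from cells onto them. LXRs are nuclear receptors that sense oxidised cholesterol and are known to raise transcription of Abca1, Abcg1, Apoe and Pltp in several cell types. In skin, Apoe and Apod are known as transcripts of dermal fibroblasts.

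The stretches of DNA just before the transcription starts of Pltp, Apoe and Apod are shown because these were the genes whose 4 young and 4 old values did not overlap. Each is the 250 bases before the start in RefSeq's promoter table (GRCm38.p6, minus strand), which held 8 of the 10 genes. They lie at chr2:164857709-164857958, chr7:19699189-19699438 (1 of 3 Apoe starts in the table) and chr16:31314809-31315058. Capitals mark a CCAAT box (CCAAT) or a GC box (GGGCGG), searched on both strands.
Pltp: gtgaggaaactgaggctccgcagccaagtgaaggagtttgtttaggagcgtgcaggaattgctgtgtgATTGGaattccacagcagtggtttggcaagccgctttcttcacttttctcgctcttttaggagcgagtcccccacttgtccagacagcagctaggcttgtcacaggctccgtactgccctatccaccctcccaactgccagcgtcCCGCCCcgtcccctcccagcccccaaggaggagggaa
Apoe: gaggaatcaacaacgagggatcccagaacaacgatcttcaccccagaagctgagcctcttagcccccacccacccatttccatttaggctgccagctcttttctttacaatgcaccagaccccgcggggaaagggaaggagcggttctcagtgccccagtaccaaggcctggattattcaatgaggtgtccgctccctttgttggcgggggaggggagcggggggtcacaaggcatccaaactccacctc
Apod: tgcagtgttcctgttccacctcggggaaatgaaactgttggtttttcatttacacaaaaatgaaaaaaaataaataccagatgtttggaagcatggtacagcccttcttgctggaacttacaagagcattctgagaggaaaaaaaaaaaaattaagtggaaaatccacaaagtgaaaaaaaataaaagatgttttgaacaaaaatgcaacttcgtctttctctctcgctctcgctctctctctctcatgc
The Pltp stretch held a CCAAT box from base 182 to 178 before the start and a GC box from base 37 to 32, both on the opposite strand. Of 32851 promoter stretches of the same length, 33.8% held a CCAAT box and 32.7% a GC box. The Apoe and Apod stretches held neither. GC content was 57.6% for Pltp, 57.2% for Apoe and 36.4% for Apod, beside a median of 52.4% over all stretches. The stretches before the other Apoe starts lay just below that median, the lower at 51.2%, so the place of Apoe relative to the median depends on the start shown. The motif AGGTCA, repeats of which LXRs bind, was in none of the 3 stretches on either strand, and 14.0% of all stretches held it. These matches describe the letters of the reference genome and no binding was measured.

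Pltp, the transfer protein, had more transcript in every old mouse. Values are log2 expression per probe set, so a step of 1 is a doubling. Young replicates 1 to 4 read 8.56, 8.49, 7.94 and 8.12, and old replicates 1 to 4 read 11.68, 11.69, 11.62 and 11.52. The groups were 2.96 apart at their nearest values. The means were 8.28 ± 0.30 and 11.63 ± 0.08 (SD, n = 4 each), a difference of 3.35 ± 0.13 (SE) and a fold of 10.2. The old values lay closer together than the young ones. Leaving out 1 mouse at a time gave differences from 3.24 to 3.44.

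Apoe, which encodes the apolipoprotein by which remnant particles are recognised, was also higher in every old mouse. Young mice read 6.99, 7.39, 7.24 and 7.08, and old mice 8.69, 8.43, 8.83 and 7.90. Old replicate 4 was the lowest of the old mice and still lay 0.51 above the highest young one. The means were 7.17 ± 0.18 and 8.46 ± 0.41 (SD, n = 4 each), which differ by 1.29 ± 0.19 (SE) or 2.44-fold. The old mice varied more than the young ones for Apoe, the opposite order to Pltp. In bulk RNA, more cells that make a transcript and more of it per cell cannot be told apart.

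Apod, which encodes a small lipid carrier of the lipocalin family, was slightly lower in old mice. Young mice read 12.11, 11.76, 12.07 and 12.02 and old mice 11.53, 11.52, 11.74 and 11.51. The lowest young value, of replicate 2, and the highest old value, of replicate 3, were only 0.02 apart. The difference was -0.41 ± 0.09 (SE), so that old mice held 75.0% of the young level. These values, like those of Pltp in old mice, lie near the top of the scale, where array maxima ran from 13.22 to 13.32.

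**Figure D1:**
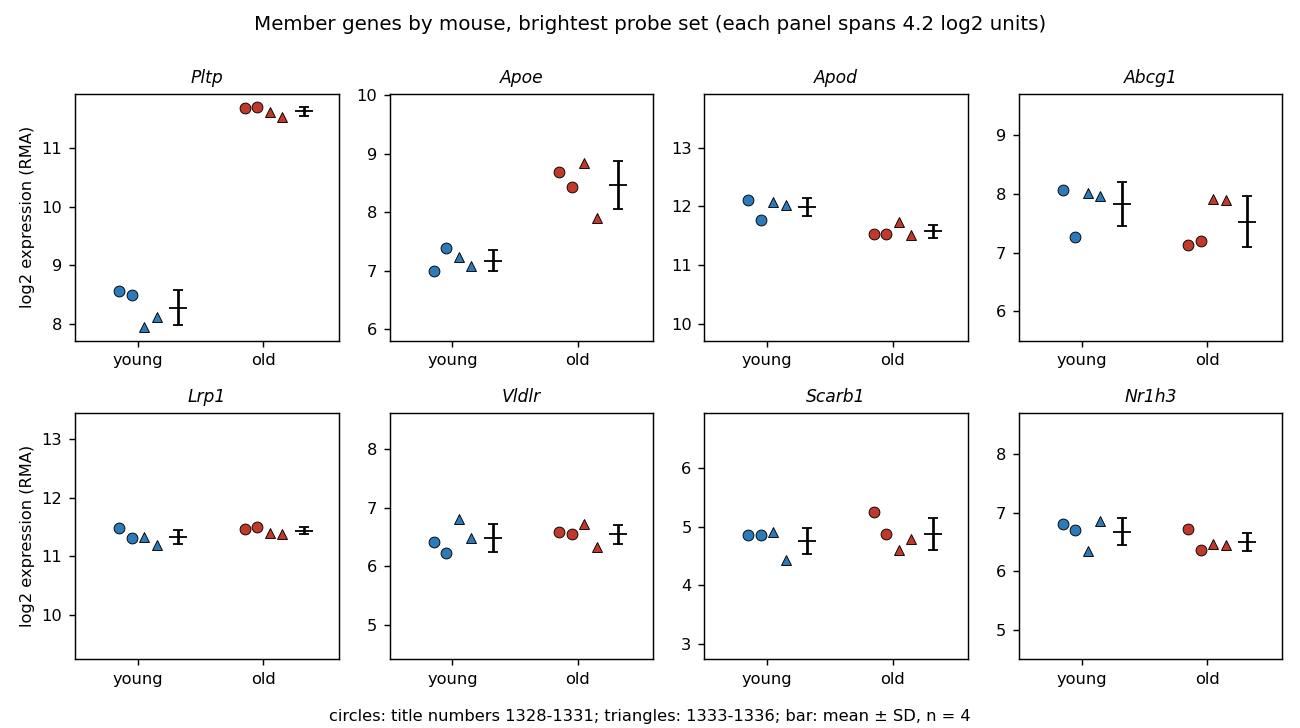
Log2 expression of the brightest probe set of each measured gene, by mouse, with every panel spanning 4.2 log2 units. Points are single mice (circles for title numbers 1328 to 1331, triangles for 1333 to 1336) and bars are mean ± SD of 4 mice. Pltp runs from 7.94 to 8.56 in young and from 11.52 to 11.69 in old mice, Apoe parts by 0.51 and Apod by 0.02, while the groups overlap in the other panels.

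Abcg1, a transporter that exports cholesterol to HDL, overlapped between the ages. Its brighter probe set read 8.07, 7.26, 8.01 and 7.96 in young mice and 7.13, 7.19, 7.91 and 7.89 in old mice. Old replicates 1 and 2 and young replicate 2 were low and the other 5 mice were high, so the split did not follow age. The difference was -0.29 ± 0.24 (SE), and that of the dimmer probe set was -0.16 ± 0.09. For the brighter set, leaving out young replicate 2 gave -0.48, leaving out old replicate 1 gave -0.16 and leaving out old replicate 2 gave -0.18. Within the earlier and later runs of the mice's title numbers the brighter set gave -0.51 and -0.08. The dimmer set gave -0.09 and -0.225, the opposite order. In that dimmer set, old mice held a narrow range of 6.41 to 6.48 and young mice ran from 6.34 to 6.72.

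The receptor genes differed little by age. Lrp1, a large endocytic receptor for remnants and many other ligands, read 11.48, 11.31, 11.32 and 11.19 in young and 11.46, 11.50, 11.40 and 11.37 in old mice by its brighter probe set, a difference of 0.11 ± 0.07 (SE). Its dimmer probe set differed by -0.11 ± 0.12, the opposite sign, and the groups overlapped in both. Scarb1, which encodes the HDL receptor SR-BI, read 4.86, 4.85, 4.90 and 4.43 in young and 5.25, 4.87, 4.60 and 4.78 in old mice. Its difference was 0.12 ± 0.15 (SE). Both of its means were below 5.10, the median over all probe sets; values under it are called dim here, and a change could be missed there.

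Vldlr, the receptor for very low density lipoprotein and reelin, was read by 5 probe sets that share a gene and are not replicates. Their differences ran from -0.14 to 0.08, with SE from 0.10 to 0.20, and 2 of the 5 were dim in both ages. By the brightest, young mice read 6.41, 6.23, 6.81 and 6.49 and old mice 6.58, 6.55, 6.73 and 6.33, which overlapped widely. Nr1h3, the LXR alpha gene, read 6.80, 6.70, 6.35 and 6.86 in young and 6.72, 6.36, 6.46 and 6.45 in old mice. The difference was -0.18 ± 0.12 (SE), with overlap.

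In limma, fitted on the brightest probe set of each of 17097 genes, 3.97% passed an adjusted p of 0.05 and 9.7% had groups that did not overlap. Of the 8 measured genes, 2 were higher past that threshold (Pltp and Apoe), 1 was lower (Apod) and 5 did not pass, and 3 did not overlap. Nothing is read from these counts, since the contrast was known when the genes were chosen. Fitted on 45037 probe sets, of which 2.58% passed and 8.44% did not overlap, 2 of the 14 passed, both higher, and Apod did not. The median difference was -0.09 over the 14 and 0.01 over all probe sets. Leaving out young replicate 1, 3 or 4, or old replicate 1, 2 or 4, also took Apod out of the calls of the gene fit, as did array weights and arrays centred on their median.

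The mice carry title numbers in 2 runs, 1328 to 1331 (replicates 1 and 2 of both ages) and 1333 to 1336 (replicates 3 and 4). Per the series' design text, each sampling day took 2 mice of either age, which is also the makeup of each run, but whether the runs are the days is not stated. This contrast played no part in choosing the genes. With age in the limma fit, 0.211% of probe sets differed between the runs and 0 of the 14 did (3 of the 14 at an unadjusted p under 0.05, against 17% of all probe sets). Abcg1 was 0.53 ± 0.17 (SE) higher in the later numbers by its brighter probe set (limma adjusted p = 0.181). By its dimmer set it was only 0.11 ± 0.08 higher (limma adjusted p = 0.494). In the brighter set, both old mice of the later run (7.91 and 7.89) lay above both of the earlier one (7.13 and 7.19). There, young replicates 1 and 2 straddled the young mice of the later run. Pltp was lower by 0.30 ± 0.09 in the later numbers (limma adjusted p = 0.163), with young means of 8.53 and 8.03 and old means of 11.68 and 11.57 in the earlier and later runs.

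Whether the age difference itself varied between the runs was tested with the interaction term. Of all probe sets 0% passed in limma, and 6.76% had an unadjusted p under 0.05. Of the 14, 0 passed and 4 had an unadjusted p under 0.05, 1 of Pltp and 3 of Vldlr. Pltp differed between ages by 3.16 in the earlier and 3.54 in the later run, Apoe by 1.37 and 1.21, and Apod by -0.41 and -0.42. The ages did not overlap in these 3 genes, so the same sign in both runs was fixed in advance and only the sizes could vary.

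For Vldlr, the sign was not shared between the runs. All 5 probe sets were higher in old mice in the earlier run, by 0.21 to 0.26. All 5 were lower in old mice in the later run, with differences from -0.52 to -0.06. The interaction ran from -0.76 to -0.29, at limma adjusted p from 0.493 to 0.825, so it did not pass for any of the 5. The Vldlr probe set with the largest drop in the later run shows the pattern. Its young replicates read 5.51 and 5.21 in the earlier and 5.94 and 6.31 in the later run, and its old replicates 1 to 4 read 5.68, 5.52, 5.68 and 5.54.

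**Figure D2:**
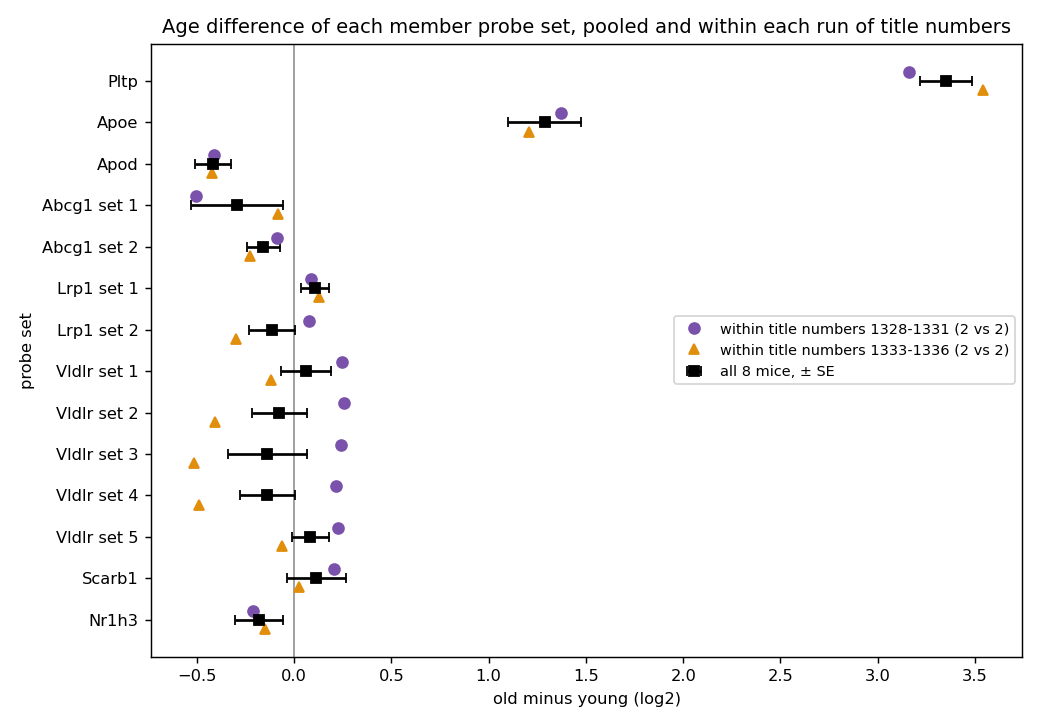
Old minus young difference (log2, horizontal) of each of the 14 probe sets, numbered from bright to dim within a gene. Squares are all 8 mice with SE, and circles and triangles are the differences of 2 old against 2 young mice within each run of title numbers. Pltp, Apoe and Apod have ages that do not overlap, so their sign is bound to be the same in both runs. The 5 Vldlr sets lie from 0.21 to 0.26 in one run and from -0.52 to -0.06 in the other.

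Beyond these genes, 105 others of lipoprotein and sterol handling were listed by role, of which 87 were measured. In limma, 5 rose with age (1.82% of all genes did), 3 fell (2.15% of all genes did) and 79 did not pass. The median difference was 0.03, beside 0.01 over all genes. Those that rose were Lbp, Lpl, Abca5, Cyp7b1 and Smpdl3a, and those that fell were Cav1, Angptl4 and Abca9. When young replicate 1, young replicate 3 or old replicate 4 was left out, 3 rose.

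Of 12 plasma lipases, transfer proteins and related enzymes, 2 rose and 1 fell. Lbp, the lipopolysaccharide-binding protein gene and a relative of Pltp in the same protein family, read 6.78, 5.89, 5.98 and 6.63 in young and 8.27, 8.28, 7.83 and 7.89 in old mice. Every old mouse lay above every young one. It rose by 1.75 ± 0.21 (SE), or 3.36-fold (limma adjusted p = 0.00204), while its other probe set changed by 0.03.

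Lpl, the lipase that frees fatty acids from circulating particles, read 8.27, 8.62, 8.31 and 8.36 in young and 8.74, 9.01, 9.23 and 9.17 in old mice. It rose by 0.65 ± 0.12 (limma adjusted p = 0.0168) and did not pass once young replicate 1, young replicate 3 or old replicate 4 was left out (highest adjusted p = 0.055). The other Lpl probe set changed by 0.27. Angptl4, which encodes an inhibitor of that lipase, read 8.16, 8.19, 8.11 and 8.09 in young and 7.64, 7.85, 7.69 and 7.57 in old mice. It fell by 0.45 ± 0.07 (limma adjusted p = 0.00957). Its other probe set changed by 0.10, and the mean of both sets did not pass (limma adjusted p = 0.335). Neither gene's groups overlapped. Lcat, the enzyme that esterifies cholesterol on HDL, changed by 0.19 and did not pass.

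Of 15 other ABC transporters, 1 rose and 1 fell. Abca9 fell by 0.46 ± 0.09 (limma adjusted p = 0.0247), from 8.41 ± 0.15 to 7.95 ± 0.12 (SD, n = 4), and did not pass once any of young replicates 1, 2 and 3 and old replicates 1 and 4 was left out (highest adjusted p = 0.0763). The other Abca9 probe set changed by -0.14. Abca5 rose by 0.44 ± 0.08 (limma adjusted p = 0.0125) but was dim in both ages, at 4.54 and 4.97, and the mean of its probe sets did not pass (limma adjusted p = 0.0892). Its relative Abca8a changed by -0.01 at a young level of 8.69.

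Of 14 genes of sterol handling inside the cell, 1 rose and 1 fell. Cav1, the caveolin that shapes cholesterol-rich pits of the cell membrane, read 9.14, 9.38, 9.84 and 9.34 in young and 7.95, 8.14, 8.27 and 8.38 in old mice. It fell by 1.24 ± 0.15 (SE), or 2.36-fold (limma adjusted p = 0.00204), in both runs alike (-1.21 and -1.26). Cyp7b1, an enzyme that breaks down oxysterols, read 6.08, 5.52, 5.47 and 5.99 in young and 6.37, 6.62, 7.61 and 7.58 in old mice. Both old mice of the later run lay above both of the earlier one. It rose by 1.28 ± 0.29 (limma adjusted p = 0.0412). It passed in only 1 of the 8 fits that left out a mouse, the one without old replicate 1, and its highest adjusted p was 0.117 without young replicate 3. Its 3 probe sets changed by 0.07 to 1.48. Npc1 and Npc2, which move cholesterol out of lysosomes, changed by -0.35 and 0.21 and did not pass.

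Of 13 partners, cofactors and targets of LXRs, 1 rose. Smpdl3a, a secreted phosphodiesterase gene listed here among LXR targets, read 7.25, 6.80, 7.17 and 7.13 in young and 7.84, 7.86, 7.97 and 8.18 in old mice. It rose by 0.88 ± 0.11 (SE), or 1.83-fold (limma adjusted p = 0.003), with no overlap. Other measured targets listed in this role did not pass: Scd1, a fatty acid desaturase, changed by -0.01, Fasn by 0.10 and Lpcat3 by -0.29. Srebf1, Scd2 and Arl4c were listed but not measured. Mylip, listed among receptor regulators and known as an LXR target that degrades LDL receptors, changed by 0.28 (limma adjusted p = 0.388). Rxra and Rxrb, which encode partners with which LXRs bind DNA, changed by 0.03 and -0.01, and Rxrb was dim in both ages. Rxrg, listed in the same role, changed by -0.16 with groups that did not overlap, and did not pass (limma adjusted p = 0.345).

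The other apolipoproteins and receptors showed no call in limma. Of 15 apolipoproteins 0 passed (2 at an unadjusted p under 0.05), and the brightest, Saa3, changed by -1.52 with a limma adjusted p of 0.176, its young mice running from 6.48 to 9.20. Apoc1, a neighbour of Apoe, changed by 0.35 (limma adjusted p = 0.232). Of 13 receptors 0 passed (4 at an unadjusted p under 0.05), the brightest being Lrp10, which changed by -0.35 (limma adjusted p = 0.211). Of 5 receptor chaperones and regulators 0 passed (0 at an unadjusted p under 0.05), the brightest being the endocytic adaptor gene Dab2, which changed by -0.31 (limma adjusted p = 0.358). The 3 probe sets of Dab2 ranged from -0.46 to 0.21 and so differed in sign.

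**Figure D3:**
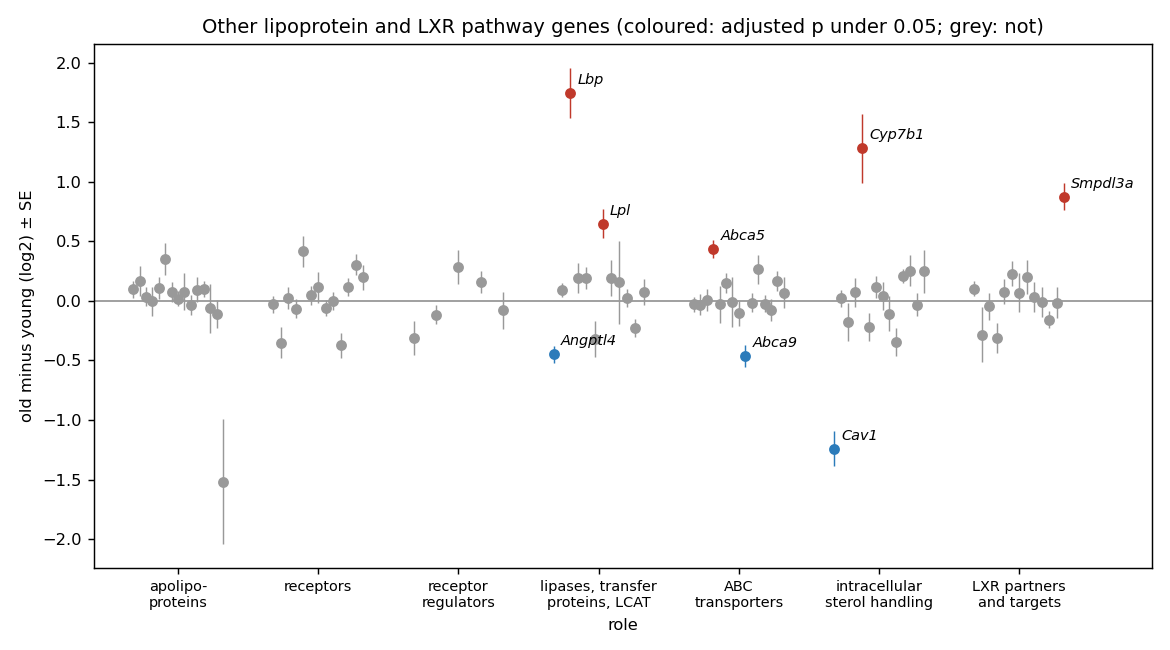
Old minus young difference (log2) with SE of the 87 other pathway genes, in 7 columns by role. Coloured and named points passed limma's threshold (red for 5 higher and blue for 3 lower in old mice), and grey points, among them Saa3 at -1.52, did not.

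**Figure D4:**
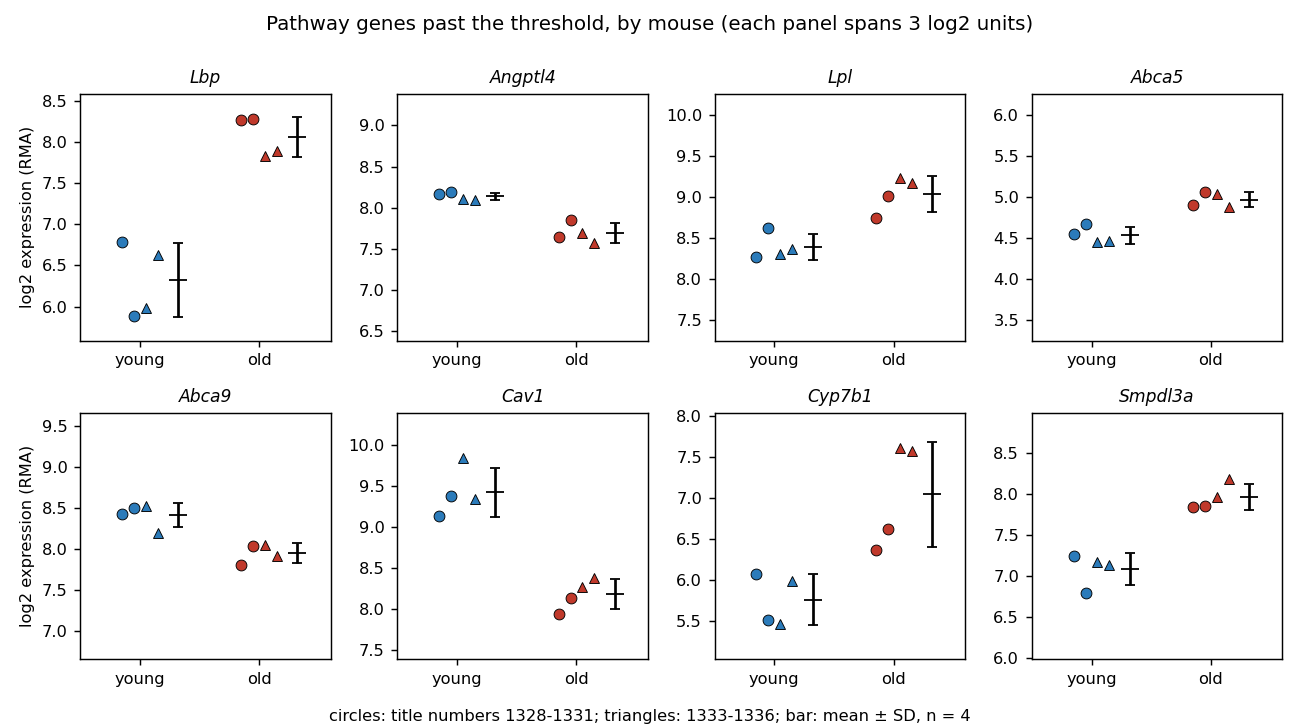
Log2 expression by mouse of the 8 pathway genes past the threshold, with every panel spanning 3 log2 units. Points are single mice (circles for the earlier, triangles for the later title numbers) and bars are mean ± SD of 4 mice. No gene overlaps between the ages, and Cyp7b1 in old mice parts into 6.37 and 6.62 against 7.61 and 7.58.

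Genes with profiles like those of Pltp and Apoe were ranked by the mean absolute difference between profiles centred on each gene's mean, over the 8 arrays and 10559 other genes above the dim level. Nearest to Pltp was Nkain4 at 0.30, then Ctla2a (a cathepsin inhibitor) at 0.42, Plcxd3 at 0.43, the R-spondin receptor gene Lgr5 at 0.45 and Tmem176b at 0.52. Nearest to Apoe was the annexin gene Anxa8 at 0.20, then the complement protease gene C1ra at 0.21, the galactosyltransferase gene B4galt5 at 0.22, Slc6a7 at 0.22 and Ypel2 at 0.24. Much of this likeness is the difference between ages itself, and all 10 were higher in old mice.

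Array medians ran from 5.06 to 5.14. The principal components with 36.7% and 24.2% of the variance parted the ages and the runs of title numbers. Of the 9 fibroblast markers 1 passed in limma, Thy1, which fell by 0.61 (adjusted p = 0.00176), and 4 had an unadjusted p under 0.05. Cd34, Col1a1, Dcn, Lum and Pdgfrb changed by at most 0.20, and Col3a1 by -0.02 on its brighter and -0.77 on its dimmer probe set. Col1a2 changed by -0.40, from 7.33 ± 0.08 to 6.92 ± 0.38 (SD, n = 4; limma adjusted p = 0.264). Pdgfra, a gene of the sorting gate, was dim in both ages and changed by -0.59, from 5.06 to 4.47 (limma adjusted p = 0.0808). Among the 5 genes sorted against, Cd24a fell by 2.74 (limma adjusted p = 0.000785), Ptprc and Kit were dim, Pecam1 changed by 0.17 and did not pass, and Epcam changed by 0.40 with groups that did not overlap (limma adjusted p = 0.0584). Macrophages are a known source of Apoe. Of 12 macrophage and monocyte markers 0 passed in limma (1 at an unadjusted p under 0.05) and 9 were dim in both ages. Their summed level (log2 of the sum) was 9.47 to 9.76 in young and 9.57 to 9.75 in old mice. Adgre1, C1qa and Lyz2 were among the dim ones. Csf1r, at 8.85 in young mice, was the brightest of the 12 and weighs most in that sum. The part of macrophages in the Apoe difference was not tested. Of 5 Schwann cell and 4 mature adipocyte markers 0 passed in limma (0 at an unadjusted p under 0.05), with overlapping summed levels. Of 7 melanocyte markers 1 passed in limma (2 at an unadjusted p under 0.05). This was Mlana, which rose from 6.22 ± 0.59 to 9.10 ± 0.61 (SD, n = 4). Mitf changed by 0.57 on its brighter probe set (limma adjusted p = 0.231) and by -0.04 on its dimmer one. Pmel changed by -0.085, and Dct, Tyrp1, Tyr and Slc45a2 were dim in both ages. The summed melanocyte level was 8.50 to 8.95 in young and 9.48 to 10.5 in old mice. The part of these markers in the differences of Pltp and Apoe was not tested. Of 6 keratinocyte markers 0 passed in limma (1 at an unadjusted p under 0.05), but the mean of each of the 6 was higher in old mice, with a median difference of 0.49 beside 0.01 over all genes. Their summed level was 8.35 to 9.27 in young and 8.68 to 10.5 in old mice. Krt5 changed by 1.12 (limma adjusted p = 0.221), and old replicates 3 and 4, at 8.78 and 8.43, lay above every young mouse. Old replicate 3 was also high in Krt10 (9.13) and Dsp (7.76). In Krt10 the other old mice read 6.23 to 6.84 and young mice 6.63 to 7.21. The highest Krt14 was in young replicate 4 (7.29). Within the earlier run of title numbers, Krt10 (-0.325) and Krt1 (-0.005) were not higher in old mice, while the other keratinocyte markers were. Without old replicate 3 Pltp differed by 3.35, Apoe by 1.17 and Apod by -0.47. Leaving out 1 mouse cannot show the part of these markers in the age differences, since old replicate 4 (Krt5 8.43) stays in. That part was not tested. Of 7 endothelial markers 0 passed (1 at an unadjusted p under 0.05), and of 6 mural markers 0 passed in limma (0 at an unadjusted p under 0.05).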

How the data were processed

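Gene expression was measured on 8 Affymetrix arrays, 4 of young and 4 of old mice. The deposited values are log2 expression per probe set, which the authors computed with the RMA method and the affy tool, per the submitters' processing notes. Versions, parameters and the genome build are not given in the sources. RMA scales arrays to a common distribution, so a change shared by most genes cannot be seen, and folds are on its log2 scale. The number of arrays limits the precision. The file held 45141 probe sets with 2 decimals and no detection calls.

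Names came from the platform annotation: 28898 probe sets had 1 symbol, 551 several and 15692 none, and only those with 1 were named. The median of all probe set means, 5.10, marks dim probe sets; 23 non-specific control probe sets had a median of 3.91 (2.98 to 7.20). The 2-sided tests of age used lmFit and eBayes of limma 3.58.1 (R 4.3.3). P-values were adjusted by Benjamini-Hochberg over the 17097 genes, each by its brightest probe set, or over the 45037 probe sets that are not controls. Every adjusted p comes from these fits. SEs of the 14 probe sets come from the probe set fit and those of other genes from the gene fit. The run of title numbers was tested beside age and as an interaction. Scripts were tested on simulated arrays.

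The genes, lists, roles and tests were chosen with earlier results of these data known. Named were all members, pathway genes past the threshold (at most 4 per role and direction) or the brightest of a role without any, the 5 nearest profiles to Pltp and to Apoe, the sorting-gate genes and markers past the threshold. Further genes were named after their values were seen. Of the 105 listed pathway genes, 18 had no probe set with their symbol alone. Alternatives changed the prior, array weights, the filter on dim probe sets, scaling, threshold, handling of several probe sets, the block and the set of mice.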

Additional observations from a re-analysis of the deposited data

Results flagged for a closer look

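In 4 of the 28 groups of 4 mice (14 probe sets, 2 ages), 1 mouse stood apart by Dixon's test, whose critical value for 4 samples is 0.829. Chance flags about 1 in 20 such groups. Apod in old replicate 3 read 11.74, with the next mouse at 11.53. Abcg1 in young replicate 2 read 7.26 by the brighter probe set, with the next mouse at 7.96. The dimmer probe set of Lrp1 read 9.97 in young replicate 4, with the next at 9.59. Scarb1 read 4.43 in young replicate 4, with the next at 4.85, in a range where the probe set is dim.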

How the results depend on the processing

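No paired analysis was possible because the labels give the ages no shared replicate numbers; the run of title numbers served as a block of 2 levels instead, and changed no count of calls by over 1.5 times. In 14 other settings Pltp ran from 3.16 to 3.54, Apoe from 1.16 to 1.48 and Apod from -0.49 to -0.38. Since their ages did not overlap, their sign could not change within a run or when a mouse was left out. By its brighter probe set, Abcg1 kept its sign with a wide range (-0.51 to -0.08). The small differences of Lrp1, Vldlr and Scarb1, by the brightest probe set of each, changed sign in 1, 3 and 1 of the 14. The dimmer Lrp1 set changed sign in 1 of 12 settings, and each of the other Vldlr sets in 1 or 2 of 12. Without 1 mouse, genes called between ages numbered 427 to 606 (679 with all) and probe sets 698 to 1089 (1163 with all). An adjusted p under 0.10 gave 1082 genes and 1986 probe sets. The other pathway genes higher in old mice numbered 3 to 5 without 1 mouse. The count of probe sets that differ between the runs of title numbers, 95, was unstable: 661 with array weights, 226 with dim probe sets left out, 308 with arrays centred on their median, 21 with quantile normalization repeated, 824 at an adjusted p under 0.10, and 0 to 584 without 1 mouse; the cause was not tested. The interaction of age and run gave 1 probe set with a prior by mean level, 1 at an adjusted p under 0.10 and 0 to 1 without 1 mouse. None of the 14 probe sets was called for run or interaction in any of these settings.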
